A study of Mus musculus with 6 samples.

Results

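Toll-like receptors are the sensors with which myeloid cells recognise microbial lipids, proteins and nucleic acids. The genes described here are 8 of these receptors (Tlr1, Tlr2, Tlr4, Tlr6, Tlr7, Tlr8, Tlr9 and Tlr13), the co-receptor Cd14 and the adaptor Myd88, chosen by name and matched to the table through their Ensembl identifiers. They are 10 of the 55487 genes in the table, and all 10 were among the 15020 tested, whose normalized counts averaged at least 10. RNA-seq of 6 libraries was available for an acute myeloid leukemia driven by the fusion oncogene MLL-AF9 (MA9), with 3 libraries from recipients given PBS and 3 from recipients given pIpC (polyinosinic-polycytidylic acid, a synthetic double-stranded RNA). The study made the comparison to address the loss of Brd9, a bromodomain subunit of a chromatin remodelling complex, in leukemia cells.

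Donor cells in both groups were CD45.2(+), carried Mx1-Cre, Brd9fl/fl and MA9, and were of strain C57BL/6. They grew in CD45.1(+) CD45.2(-) recipients that had been irradiated and had received 1000 leukemic cells each. Injections began the day after transplantation, 3 doses on alternate days with pIpC at 20 mg/kg, and GFP+ bone marrow cells of femora and tibiae were taken 10 days after injection. The Mx1 promoter answers to interferon, so the agent that induces Cre is itself a ligand of innate RNA sensors, and loss of Brd9 and exposure to pIpC cannot be told apart in this design. Other differences between the cells of the groups, such as that in the X inactivation RNA Xist given below, go with the label too. The methods of the study name c-Kit+ cells, stranded libraries and sublethal irradiation, whereas the sample labels name GFP+ cells, unstranded libraries and lethal irradiation. No label says that the libraries of a group came from separate animals, so the p-values measure the spread between these libraries.

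The whole-gene count of the targeted gene was not lower under the pIpC label. Brd9 (ENSMUSG00000057649) had 1927, 1946 and 1632 normalized counts in the PBS libraries and 2036, 2263 and 2011 in the pIpC-labelled libraries. The log2 fold change (log2FC, pIpC-labelled minus PBS, on the log2(normalized count + 1) scale) was 0.20 (SE 0.13, adjusted p = 0.259, limma), and the exact two-sided permutation p of 0.1 is the smallest that 3 libraries against 3 allow. The floxed stretch of the study's allele covers only some of the exons, and a count over the whole gene does not measure the deleted part by itself, so this value does not tell whether the deletion took place. Directions are therefore given by label. Between 19277439 and 22378154 reads per PBS library and between 22348517 and 23586722 per pIpC-labelled library fell on genes. PBS replicate 3 stood apart: relative to the other PBS libraries its median log2 difference was 0.79 over the 3755 tested genes with the shortest transcripts (up to 1730 bases) and -0.61 over the 3751 with the longest (from 4474 bases). Cell type markers moved with the label. Each of the 9 neutrophil markers passed as higher, beside 25% of all tested genes. Their summed level was 15475 to 32354 normalized counts in PBS and 1294000 to 1359070 in the pIpC-labelled libraries. Of 5 leukemia markers 3 were lower and 1 higher (all tested genes: 20.4% lower, 25% higher). Hoxa9, Hoxa10 and Meis1, genes that MLL fusions activate, fell by 4.32, 6.38 and 4.01 on the log2 scale, and remained above 0 in every library. Hoxa10 was left with 20, 12 and 22 reads in the pIpC-labelled libraries, beside 1672, 1455 and 1496 in PBS. Ptprc rose by 1.02 on the log2 scale (adjusted p = 0.0103, limma), and Kit did not pass (-0.46, adjusted p = 0.213, limma). The 5 leukemia markers summed to 18528 to 25576 normalized counts in PBS and 16465 to 18465 in the pIpC-labelled libraries. The share of leukemia cells in each library was not tested. The 9 B cell markers summed to 139 to 304 normalized counts in PBS and 1339 to 2326 in the pIpC-labelled libraries, and Ms4a1 among them was at 0 in all PBS libraries. The 6 red cell markers examined summed to 16.4 to 32.8 and 2316 to 3507, and Slc4a1, the anion exchanger of red cells, was at 0 in all PBS libraries. Of these markers, 7 of the B cell and 5 of the red cell genes averaged under 10 in PBS and were tested only because of their level in the pIpC-labelled libraries, so their calls are not counted here. The part of either cell type in the results that follow was not tested.

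Toll-like receptors at the cell surface read lipids and proteins: TLR2 pairs with TLR1 or TLR6 to bind bacterial lipopeptides, and TLR4 binds lipopolysaccharide that CD14 delivers to it. Receptors in the endosome read nucleic acids: TLR7 and human TLR8 single-stranded RNA, TLR9 unmethylated CpG DNA and TLR13 bacterial ribosomal RNA. Each of them passes its signal through MYD88 to IRAK kinases, TRAF6 and NF-kB, and in the marrow they are mainly found on monocytes, neutrophils, dendritic cells and B cells.

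Of the 10 genes, 6 rose and 2 fell from PBS to pIpC label, and 2 did not pass the threshold (limma, Benjamini-Hochberg adjusted p under 0.1). Over all tested genes 25% were called higher and 20.4% lower. The members divided within families: Tlr2, Tlr4 and Tlr6 rose while Tlr1 fell, Tlr7 and Tlr8 rose while Tlr9 and Tlr13 did not pass, and Myd88 rose while Cd14 fell. The 3 values of each group did not overlap in 8 of the 10 genes, 6 above and 2 below PBS, and in 56.8% of all genes tested. The median log2FC of the members was 0.97, beside 0.01 over all tested genes. In RNA from many cells, fewer cells of a type and less RNA per cell cannot be told apart, and the part of the neutrophil, monocyte and other markers in these changes was not tested.

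**Figure D1:**
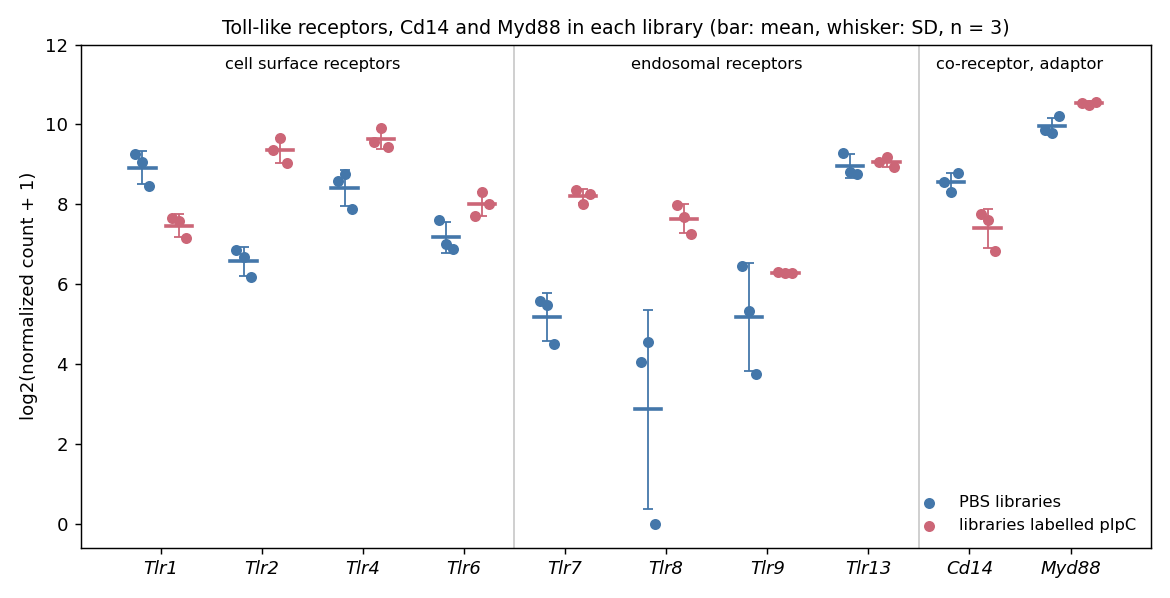
Each point is one library, with the gene on the x axis and log2(normalized count + 1) on the y axis, PBS libraries in blue and pIpC-labelled libraries in red; bars are means and whiskers SD over 3 libraries. Tlr1 and Cd14 sit lower in red, Tlr2, Tlr4, Tlr6, Tlr7, Tlr8 and Myd88 sit higher, and the lone PBS value of 0 is Tlr8 in PBS replicate 3.

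Among the surface receptors, Tlr2, which binds lipopeptides together with either partner, had 115, 101 and 71.3 normalized counts in PBS replicates 1, 2 and 3 and 653, 809 and 526 in the pIpC-labelled libraries. The lowest value labelled pIpC was well above the highest PBS value. The mean rose from 95.9 ± 22.4 to 663 ± 142 (SD, n = 3), and log2FC was 2.78 (SE 0.25, adjusted p = 0.000249, limma).

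Tlr1, one partner of Tlr2, went the other way. It had 607, 530.4 and 349.7 normalized counts in PBS and 203, 191 and 141 in the pIpC-labelled libraries, again without overlap. The mean fell from 496 ± 132 to 178 ± 32.6 (SD, n = 3), with a log2FC of -1.45 (SE 0.26, adjusted p = 0.00506, limma).

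Tlr6, the alternative partner of Tlr2, had 194, 129 and 118 normalized counts in PBS and 209, 314 and 257 in the pIpC-labelled libraries. The groups were apart by a small gap, between PBS replicate 1 and pIpC replicate 1. The log2FC was 0.84 (SE 0.26, adjusted p = 0.0448, limma), and the call was lost when PBS replicate 2 (0.76, adjusted p = 0.115), pIpC replicate 2 (0.69, adjusted p = 0.166) or pIpC replicate 3 (0.83, adjusted p = 0.133) was left out.

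Tlr1 and Tlr6 lie next to each other on the minus strand of chromosome 5 (Tlr1 at chr5:64924679-64933563 and Tlr6 at chr5:64952031-64960097, GRCm38) and are near copies over part of their length. Of all 50-base words in their annotated transcripts, 454 were common to both, 13.6% of the words of Tlr1 and 12.3% of those of Tlr6, so reads from these stretches could have been assigned to either gene or dropped. Tlr2 (chr3:83836272-83841767) shared no such word with any other gene. The pair with shared words nevertheless had opposite directions in the table.

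Because Tlr2 and Tlr1 moved in opposite directions, the sequence before their first annotated base is shown. It comes from the RefSeq promoter windows on GRCm38.p6, searched here for 7 of the 10 members (Tlr1, Tlr2, Tlr6, Tlr8, Tlr9, Tlr13 and Myd88, with 9 windows). Tlr4, Tlr7 and Cd14 were not searched, so the patterns below say nothing about them. Capitals mark GAGGAAG, the core bound by the myeloid factor PU.1, in Tlr1 and overlapping matches of an NF-kB pattern, GGG and CC with 5 free bases between them, in Tlr2; both strands were searched over the 250 bases before the RefSeq start. The stretch of Tlr1 is chr5:64933564-64933808 and that of Tlr2 chr3:83841768-83841858, both read on the minus strand:
Tlr1: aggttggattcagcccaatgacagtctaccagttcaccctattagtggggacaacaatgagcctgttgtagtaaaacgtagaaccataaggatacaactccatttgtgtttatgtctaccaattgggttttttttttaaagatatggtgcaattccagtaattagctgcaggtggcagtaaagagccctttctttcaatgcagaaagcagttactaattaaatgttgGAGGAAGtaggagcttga
Tlr2: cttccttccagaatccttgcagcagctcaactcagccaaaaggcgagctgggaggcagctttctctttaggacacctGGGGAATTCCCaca

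The PU.1 core was found before Tlr9 and Tlr13, in a window of Tlr1, and in 10.6% of all 32851 promoter windows. The other window of Tlr1 held none of the patterns searched. The NF-kB pattern was found before Tlr2 and in one of the windows of Tlr6, and it is common, with 45.8% of all windows. A match describes letters in a window and shows no binding.

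Tlr4, the lipopolysaccharide receptor (chr4:66827584-66930284), had 379.8, 430.2 and 235 normalized counts in PBS and 753, 969.6 and 688 in the pIpC-labelled libraries. Every pIpC-labelled library exceeded every PBS library. The mean rose from 348 ± 101 to 803 ± 148 (SD, n = 3), with a log2FC of 1.23 (SE 0.26, adjusted p = 0.0104, limma).

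Cd14, which hands lipopolysaccharide to TLR4, fell as Tlr4 rose. It had 376, 318 and 438 normalized counts in PBS and 215, 193 and 113 in the pIpC-labelled libraries, without overlap. Its mean fell from 377 ± 60.1 to 174 ± 53.5 (SD, n = 3), with a log2FC of -1.16 (SE 0.28, adjusted p = 0.0176, limma). Per transcript length, the ratio of Tlr4 to Cd14 was between 0.168 and 0.422 in PBS and between 1.09 and 1.89 in the pIpC-labelled libraries. Ly96, which encodes the TLR4 partner MD-2 and is named after its values were seen, had 51.0, 37.5 and 90.5 normalized counts in PBS and 31.9, 38.8 and 23.2 in the pIpC-labelled libraries, which overlapped (log2FC -0.84, SE 0.39, adjusted p = 0.141, limma).

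Tlr8 and Tlr7 had the largest rises among the members. Tlr7 (chrX:167304929-167330558) had 46.7, 43.5 and 21.5 normalized counts in PBS and 327, 258 and 308 in the pIpC-labelled libraries. The mean rose from 37.2 ± 13.7 to 298 ± 35.5 (SD, n = 3), with a log2FC of 3.03 (SE 0.33, adjusted p = 0.000549, limma). All 3 pIpC-labelled libraries were far above the PBS range.

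Tlr8, its neighbour on the X chromosome (chrX:167242696-167264329), had 15.6 and 22.3 normalized counts in PBS replicates 1 and 2, 0 in PBS replicate 3, and 254, 204 and 152 in the pIpC-labelled libraries. These PBS values rest on 18, 22 and 0 reads. The log2FC was 4.78 (SE 1.14, 95% interval 2.06 to 7.5, adjusted p = 0.017, limma), and without PBS replicate 3 it was 3.35 (adjusted p = 1.09e-05), so its size depends on the library without reads while its direction did not change in any alternative run.

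Tlr13 (chrX:106143204-106160493), the sensor of bacterial ribosomal RNA, had 627, 445 and 436 normalized counts in PBS and 529, 576 and 492 in the pIpC-labelled libraries. The groups overlapped, and the log2FC was 0.10 (SE 0.18, 95% interval -0.33 to 0.54, adjusted p = 0.691, limma), an interval that leaves out a change of 1 in either direction on the log2 scale. The sign turned when values were scaled to column totals (-0.037) and when the transcript length trend was removed (-0.0098).

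Tlr9 (chr9:106222598-106226883), the CpG DNA sensor, had 86.5, 39.5 and 12.4 normalized counts in PBS and 77.8, 76.6 and 77.4 in the pIpC-labelled libraries. The PBS libraries were spread around the narrow range of the pIpC-labelled libraries. The log2FC was 1.11 (SE 0.64, adjusted p = 0.217, limma). Among the alternatives run it passed only without PBS replicate 1 (1.75, adjusted p = 0.0423), and it was 0.40 (adjusted p = 0.311) without PBS replicate 3.

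Tlr8 and Tlr13 are the X-linked members with the largest and the smallest change, so the sequences before them are shown, from the same RefSeq windows. Capitals mark TTGCNNAA, the pattern of C/EBP factors, in Tlr8 (here read on the opposite strand) and the PU.1 core in Tlr13. The stretch of Tlr8 is chrX:167264330-167264579 on the minus strand and that of Tlr13 chrX:106143025-106143203 on the plus strand:
Tlr8: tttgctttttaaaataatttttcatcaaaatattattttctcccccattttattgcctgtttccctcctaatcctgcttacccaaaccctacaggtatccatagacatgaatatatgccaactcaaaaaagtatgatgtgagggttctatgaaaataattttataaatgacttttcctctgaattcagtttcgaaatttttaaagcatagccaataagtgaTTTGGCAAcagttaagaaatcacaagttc
Tlr13: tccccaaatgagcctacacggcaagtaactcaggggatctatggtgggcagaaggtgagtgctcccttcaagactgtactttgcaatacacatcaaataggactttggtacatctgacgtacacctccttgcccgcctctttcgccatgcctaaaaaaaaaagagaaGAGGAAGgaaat

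The C/EBP pattern was found before Tlr8 and in a window of Tlr6, and in 9.56% of all windows. The last pattern searched was that of interferon-stimulated response elements (GAAA repeated after 2 free bases). It was found before the RefSeq start of Myd88 and in the same window of Tlr6, and in 2.98% of all windows. These windows, chr9:119340019-119340268 for Myd88 and chr5:64959167-64959416 for Tlr6, lie inside the annotated genes.

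Xist, the RNA that silences an X chromosome, moved with the label: it had 51.0, 72.9 and 15.8 normalized counts in PBS and 18429, 26172 and 19942 in the pIpC-labelled libraries. Over the 448 X-linked genes tested the median log2FC was 0.15 and 25.7% were called higher, beside 0.01 and 25% of 14502 autosomal genes. Tlr7, Tlr8 and Tlr13 are X-linked, and the part of X chromosome dosage in their values was not tested. Whether the cells of the groups differed in sex or origin was not tested either.

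Myd88 (chr9:119335934-119341411), the adaptor that these receptors share, had 933, 883 and 1176 normalized counts in PBS and 1489, 1430.4 and 1521 in the pIpC-labelled libraries. The groups did not overlap. The mean rose from 997 ± 157 to 1480.2 ± 46.0 (SD, n = 3), with a log2FC of 0.58 (SE 0.14, adjusted p = 0.0197, limma). Of its 2576 exon bases, 290 (11.3%) also lie in exons of Acaa1a on the opposite strand, and reads there cannot be told apart in unstranded libraries. Acaa1a itself had a mean of 1391 ± 559 in PBS and 1075 ± 19.2 in the pIpC-labelled libraries (log2FC -0.30, adjusted p = 0.398, limma).

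**Figure D2:**
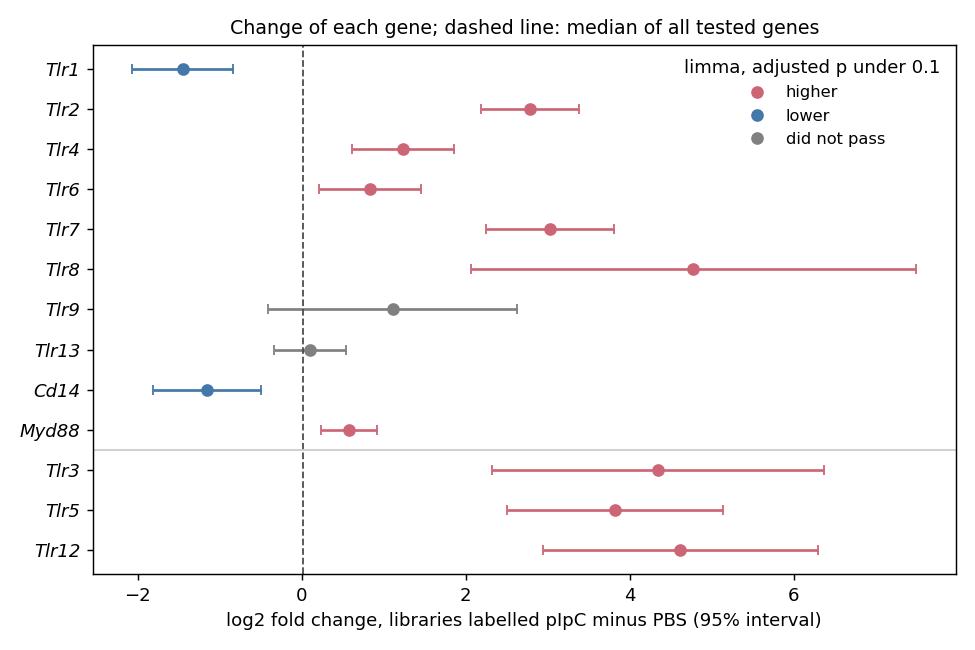
Log2 fold change on the x axis (pIpC-labelled libraries minus PBS) with its 95% interval for the 10 genes and, below the line, Tlr3, Tlr5 and Tlr12; red passed as higher, blue as lower and grey did not pass. Tlr8 has the largest value among the members, 4.78, and also the widest interval, and Tlr13 lies at 0.10.

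To order the genes, reads were divided by the annotated exon length and scaled to the same total in each library (TPM, the transcript's share of all transcripts). In PBS the mean level ran from Myd88 (47.6 TPM) and Cd14 (26.9) through Tlr1 (19.4), Tlr13 (15.0), Tlr4 (8.25), Tlr6 (5.10) and Tlr2 (4.15) to Tlr9 (1.84), Tlr7 (1.22) and Tlr8 (0.503). Over the 3 libraries the ranges of Myd88 and Cd14 were apart, and those of every other pair of neighbours overlapped. Within single libraries 8 of the 9 neighbouring pairs kept this order in all 3, and Tlr9 and Tlr7 changed places in 1. In the pIpC-labelled libraries the order was Myd88 (58.3 TPM), Tlr2 (22.4), Tlr4 (14.7), Tlr13 (12.6), Cd14 (10.1), Tlr7 (7.38), Tlr6 (7.11), Tlr8 (5.73), Tlr1 (5.40) and Tlr9 (2.25). There the ranges of Myd88 and Tlr2 and of Tlr1 and Tlr9 were apart, those of all other neighbours overlapped, and 4 of the 9 neighbouring pairs kept the order within each library. Between the groups Tlr6 overlapped on this scale, at 2.90 to 7.5 TPM against 5.46 to 8.82 TPM. Tlr1 was thus the receptor with the highest mean level in PBS and the next to last in the pIpC-labelled libraries, while Tlr2 had the highest mean level there.

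The makeup of the receptors moved accordingly. Tlr1 held 34.8 ± 1.47% (SD, n = 3) of the summed TPM of the 8 receptors in PBS and 6.97 ± 0.833% in the pIpC-labelled libraries, and Tlr2 held 7.51 ± 0.235% and 28.6 ± 2.47%. Tlr7 went from 2.10 ± 0.385% to 9.73 ± 2.10% and Tlr13 from 28.0 ± 4.35% to 16.3 ± 0.855%. In each of these the groups were apart. The endosomal receptors together held 30.2% to 35.4% of the sum in PBS and 32.1% to 38.7% in the pIpC-labelled libraries, which overlapped, so the division between surface and endosome did not separate the groups although single receptors in each compartment did. Within a library, the ratio of Tlr2 to Tlr1 per length was between 0.210 and 0.226 in all PBS libraries, PBS replicate 3 included, and between 3.58 and 4.70 in the pIpC-labelled libraries. Tlr6 to Tlr1 went from between 0.218 and 0.302 to between 0.924 and 1.64.

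**Figure D3:**
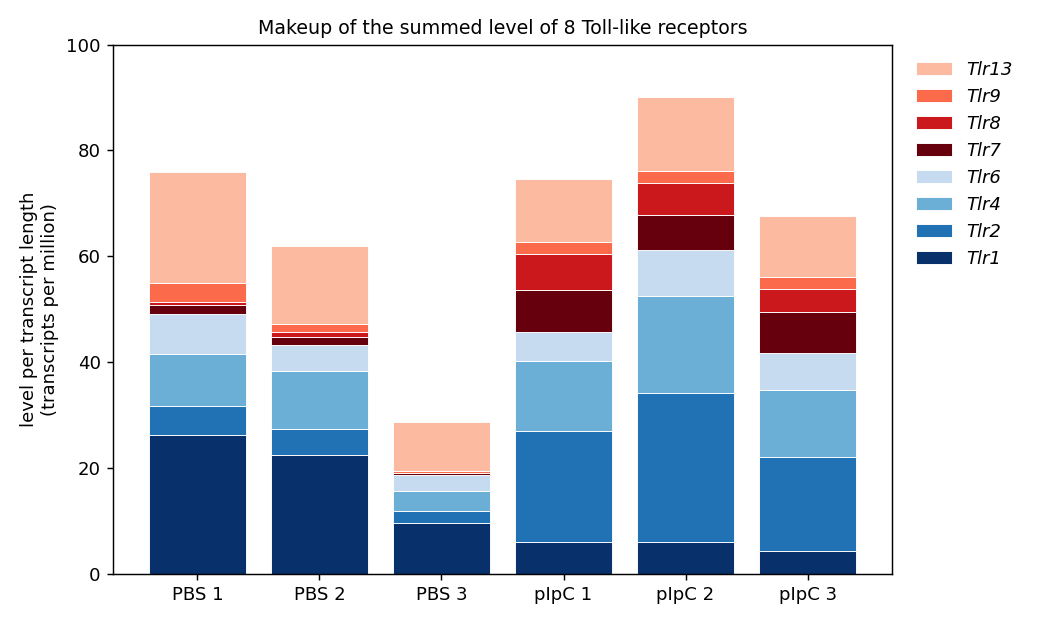
Stacked bars give, for each of the 6 libraries on the x axis, the level per transcript length of the 8 receptors in TPM, surface receptors in blue shades and endosomal receptors in red shades. The Tlr1 block at the base is large in PBS and small in the pIpC-labelled libraries, where Tlr2 is the largest block; the sum is lowest in PBS replicate 3, at 28.7 TPM.

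PBS replicate 3 was the lowest PBS library in 8 of the 10 genes, a share of 80% beside 43.8% of all tested genes. Its log2 difference from the other PBS libraries ran from -0.28 in Tlr13 to -4.30 in Tlr8 for the 8 receptors, and was 0.34 in Cd14 and 0.37 in Myd88. The 8 calls among the members were the same in direction and passed without this library, and also when each library's trend with transcript length was removed, an alternative added after the data were seen.

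The rest of the pathway was described from lists of 88 other genes, 83 of them tested. Of these, 33 were higher and 15 lower in the pIpC-labelled libraries (limma, adjusted p under 0.1), beside 25% and 20.4% of all genes tested, and their median log2FC was 0.32. Among the 33 were 6 genes that averaged under 10 in PBS and among the 15 was 1 that did so in the pIpC-labelled group, so that these 7 could pass the filter on low values only through the group where they were high. The count of lower genes was 9 without pIpC replicate 2 and 8 without pIpC replicate 3.

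The 3 tested receptors outside the 10 were near 0 in PBS. They passed the filter on low values only through their level in the pIpC-labelled libraries, so the direction of their difference was set by that filter. Tlr3, the receptor of double-stranded RNA and thus of pIpC, had 0.865, 9.11 and 0 normalized counts in PBS and 72.9, 37.8 and 54.2 in the pIpC-labelled libraries (log2FC 4.34, SE 0.85, adjusted p = 0.00755, limma). Tlr5, the flagellin receptor, rose from 7.59 ± 4.61 to 108 ± 28.9 (SD, n = 3), a log2FC of 3.83 (adjusted p = 0.00202, limma). Tlr12 was called higher too, at 4.62 (adjusted p = 0.00258), and Tlr11 had no read in PBS and 22.0, 12.3 and 11.6 normalized counts in the pIpC-labelled libraries, at least 5.08-fold higher against a floor of 3 reads per library; both are named after their values were seen.

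Of 18 genes for accessory proteins and receptor trafficking, 6 were higher, 4 lower and 8 did not pass (all genes: 25% and 20.4%). Among the 6 was Cd36, which averaged under 10 in PBS and passed the filter on low values only through the pIpC-labelled libraries. Slc15a3, a lysosomal transporter of histidine and peptides, had 8.65, 13.2 and 9.05 normalized counts in PBS and 325, 319 and 222 in the pIpC-labelled libraries (log2FC 4.68, SE 0.28, adjusted p = 5.44e-05, limma). Dnase2a, the lysosomal DNase, fell from 2012 ± 798 to 733 ± 65.1 (SD, n = 3; log2FC -1.39, adjusted p = 0.00655, limma). Unc93b1, the chaperone that carries endosomal receptors and is named after its values were seen, rose by 0.37 on the log2 scale (adjusted p = 0.041, limma), beside 3.03 for Tlr7 and 4.78 for Tlr8. On the TPM scale the groups of Unc93b1 overlapped, at 183, 158 and 106 in PBS and 150, 162 and 152 in the pIpC-labelled libraries.

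Of 5 other adaptors, 3 rose, 1 fell and 1 did not pass (all tested genes: 25% higher, 20.4% lower). Tirap, which bridges MYD88 to TLR2 and TLR4, had 537, 551 and 356 normalized counts in PBS and 1347, 1557 and 1432 in the pIpC-labelled libraries, with a log2FC of 1.61 (SE 0.20, adjusted p = 0.000916, limma). Pik3ap1 (1.29) and Ticam2 (0.63) rose as well. Ticam1, the adaptor of TLR3, did not pass (0.11, adjusted p = 0.623, limma). Sarm1 had 47.6, 43.5 and 23.8 normalized counts in PBS and no read in the pIpC-labelled libraries, at least 12.8-fold lower against the floor of 3 reads per library. As the 1 adaptor counted as fallen, Sarm1 passed the filter on low values only through the PBS libraries, so its direction was set by that filter. These last 4 genes are named after their values were seen.

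Further down the pathway, of 13 genes of the IRAK, TRAF6 and TAK1 step, 3 rose, none fell and 10 did not pass. For this list and the next, the shares over all tested genes were 25% higher and 20.4% lower. Peli2, an E3 ligase that modifies IRAK1, rose from 131 ± 32.5 to 955 ± 95.5 (SD, n = 3; log2FC 2.88, adjusted p = 0.000116, limma). Of 14 IKK, NF-kB and IRF genes, 5 rose, 1 fell and 8 did not pass; Ikbke, a kinase of IRF factors, rose by 1.65 (adjusted p = 0.000357) and Irf5, a transcription factor used by MYD88, fell by 0.43 (adjusted p = 0.0819, limma) on the log2 scale.

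Among 11 inhibitors of the pathway, 3 rose, 3 fell and 5 did not pass (all tested genes: 25% higher, 20.4% lower). Nfkbia, which holds NF-kB in the cytoplasm and is itself an NF-kB target, had 877, 1003 and 886 normalized counts in PBS and 2082, 2274 and 1969 in the pIpC-labelled libraries (log2FC 1.19, adjusted p = 0.000439, limma). Tnfaip3, the A20 ubiquitin editor, fell by 0.86 (adjusted p = 0.072, limma) although its groups overlapped through PBS replicate 3.

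The cytokine genes that the receptors induce also divided. Of 11 in the list 7 were tested, of which 2 rose, 4 fell and 1 did not pass (all genes: 25% higher, 20.4% lower). Among the 4 was Ptgs2, which encodes a prostaglandin enzyme and not a cytokine. Its groups overlapped through PBS replicate 3 (log2FC -1.25, adjusted p = 0.0958, limma). Il1b had 16.4, 36.4 and 18.1 normalized counts in PBS and 322, 255 and 69.6 in the pIpC-labelled libraries (log2FC 2.96, SE 0.62, adjusted p = 0.0101, limma), and pIpC replicate 3 was the lowest of its group. Ccl3, a macrophage chemokine, had 1381, 1269 and 1187 in PBS and 46.9, 32.7 and 45.4 in the pIpC-labelled libraries, a log2FC of -4.92 (SE 0.19, adjusted p = 1.77e-05, limma). Il6 and Il12b had no read in any PBS library, and Il12b stayed at or under 3 reads in every library.

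Receptors of the IL-1 family, most of which signal through MYD88 as well, were called higher in 6 of 6 cases tested, beside 25% of all tested genes. Of these 6, Il18r1 and Il1rl1 passed the filter on low values only through the pIpC-labelled libraries. Il1rl1 is named after its values were seen. Il18r1, the ligand-binding chain of the IL-18 receptor, had 0.865, 9.11 and 2.26 normalized counts in PBS and 638, 648 and 763 in the pIpC-labelled libraries, with a log2FC of 7.43 (SE 0.59, adjusted p = 0.000154, limma). The T and NK cell markers summed to 177 to 315 normalized counts in PBS and 3908 to 4521 in the pIpC-labelled libraries, and Nkg7, a granule protein gene, held 93.0% and 95.3% of these sums (162 to 301 and 3702 to 4312). The other 4 tested markers averaged under 10 in PBS and passed the filter only through the pIpC-labelled group. The part of these cells in the result was not tested.

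Of 6 genes for cytosolic sensing of double-stranded RNA, 2 rose, 2 fell and 2 did not pass (all genes: 25% higher, 20.4% lower). Those that fell were Mavs, an adaptor and not a sensor, and Ifih1, which encodes the sensor MDA5. Ifih1, named after its values were seen, fell from 1108 ± 124 to 695 ± 53.6 (SD, n = 3), with a log2FC of -0.67 (adjusted p = 0.00945, limma). Ddx58, which encodes RIG-I, rose from 479.5 ± 69.2 to 1187 ± 97.7 (SD, n = 3; log2FC 1.31, adjusted p = 0.000729, limma), and Mavs, the adaptor of RIG-I and MDA5, fell from 468 ± 25.4 to 272 ± 33.5 (SD, n = 3; log2FC -0.79, adjusted p = 0.00773, limma).

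**Figure D4:**
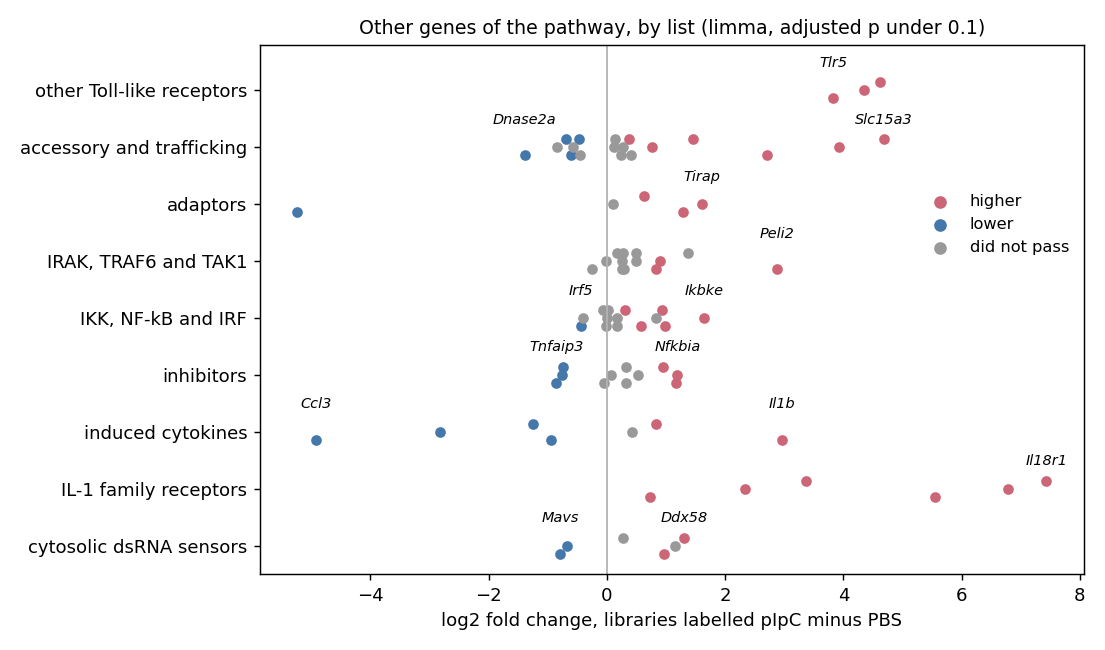
Each point is one tested gene of the 9 lists on the y axis, with its log2FC on the x axis; red passed as higher, blue as lower and grey did not pass, and the names are those of the genes with the largest rise and fall of each list by the rule. The IL-1 family receptors and the other Toll-like receptors lie wholly to the right, and Ccl3 at -4.92 and the unnamed adaptor point Sarm1 lie farthest to the left. The other Toll-like receptors, Il18r1, Il1rl1, Cd36 and Sarm1 passed the filter on low values only through the group where they were high, which set their side. Sarm1 had no read in the pIpC-labelled libraries, so its place depends on the pseudocount.

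Markers of the cells that carry these receptors also moved with the label. Of 7 monocyte markers 6 were higher, beside 25% of all tested genes (summed levels of 24735 to 28572 in PBS and 38969 to 42960 in the pIpC-labelled libraries). Ly6c2, named after its values were seen, was the largest part of these sums, with means of 22949 and 30205. The markers of plasmacytoid dendritic cells, which are known for Tlr7 and Tlr9, summed to 54.3 to 112 and 936 to 1182, of which Tcf4, a transcription factor of these cells, held 90.0% and 74.5%. The 6 markers of conventional dendritic cells summed to 589 to 914 and 1744 to 2358. In each of these dendritic cell lists 4 of the tested genes averaged under 10 in PBS and passed the filter only through the pIpC-labelled group, so no count of calls is given for them. Of 9 macrophage markers 7 were higher, 2 of them tested in this way, and 2 lower (all tested genes: 25% higher, 20.4% lower). The 2 lower genes, named after their values were seen, were Adgre1 (log2FC -3.80, mean 4307 to 310) and Vcam1 (log2FC -0.90, mean 8421 to 4444). The summed level, to which these 2 contributed most in PBS, went from between 10326 and 14604 to between 6253 and 8236, although the other 7 markers rose. The part of any of these cells in the values of the 10 genes was not tested.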

How the data were processed

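RNA-seq of GFP+ bone marrow cells was compared between 3 PBS libraries and 3 libraries labelled pIpC. The authors deposited one table of normalized counts, used here as a signal per gene. The submitters' processing notes name GRCm38, HISAT2 (version 2.2.1), SAMtools, featureCounts, Subread and edgeR, and the methods of the study name nf-core/rnaseq with STAR and RSEM on mm10; which of them made the table is not given in the sources used here. Every value was, within 0.01, a whole multiple of one value per library, so 100% of values gave whole reads. No strand, length or GC correction is stated, and multi-mapped reads may have been dropped or split.

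Values were tested as log2(normalized count + 1) with limma 3.58.1 (R 4.3.3), using its intensity trend and no replicate block. Genes averaging 10 or more were tested, and calls were made at the study's threshold, a Benjamini-Hochberg adjusted p under 0.1. The pseudocount of 1 understates changes of low genes. Alternatives were pseudocounts of 0.1 and 10, a filter at 50 or none, scaling by quantiles, by median-centred ratios or by column totals, each library left out, a replicate block, no trend, an adjusted p under 0.05, and the recovered reads in DESeq2 1.42.0 or edgeR 4.0.16; removal of the transcript length trend was added after the data were seen. Levels per length used union exons of GENCODE M21 on GRCm38. Same-numbered libraries' deviations correlated at -0.117, 0.143 and 0.041, so numbers were not taken as pairs. All pairs of libraries in a group differed beyond sampling noise (chi-square per gene of at least 6.30), so none was taken as a repeat of another; this does not show separate animals.

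Depth was 19277439 to 23586722 reads on genes, so 3 reads correspond to 2.60 to 3.40 normalized counts, taken as the floor; floors cover counting error only. The scripts were tested on simulated data. The members and lists were chosen with earlier results of these data known. Named genes are the 10 members, Brd9, Tlr3, Xist and, per list, the largest rise and fall past the threshold with a mean of at least 100 in the higher group; all others (marker genes, Acaa1a, Il6 and Il12b among them) were named after their values were seen. A planned comparison of member proteins was not run. One red cell marker is not reported here.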

Additional observations from a re-analysis of the deposited data

How the results depend on the processing

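For the log2 fold changes of the 10 genes, 183 of 190 comparisons with an alternative kept the direction and the side of the threshold. The exceptions were Tlr6, which did not pass under column total scaling (0.70, adjusted p = 0.117, limma) or in the 3 runs without a library given above, Tlr9, which passed without PBS replicate 1, and Tlr13, whose sign turned to -0.037 under column total scaling and to -0.0098 with the transcript length trend removed; the cause was not tested. With a library left out in turn, 5 to 7 members were called higher and 2 lower, 27 to 44 other pathway genes higher and 8 to 21 lower. The Brd9 log2 fold change ran from 0.03 to 0.24 over all alternatives (adjusted p of 0.201 to 0.815). With the replicate block, 6 members were higher and 2 lower, and 30 and 13 other pathway genes; the block changed no call of a member, and 6095 genes were called in place of 6808. edgeR called 6901 and DESeq2 7451. Quantile normalization moved the median of all genes to -0.12 and column totals to -0.13, and calls went from 3750 higher and 3058 lower to 3244 and 4078, and to 2910 and 4151. With the longest transcript in place of union exons, endosomal receptors held 32.0% in PBS and 34.9% in the pIpC-labelled libraries.

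Depth limits Tlr8, Tlr3, Tlr11 and Tlr12 in PBS, where counts lie between 0 and 22 reads, and the size of their changes is therefore loosely fixed. With 3 libraries a group, a call that fails the threshold does not show that the groups were alike.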
